A study of Homo sapiens with 9 samples.

Results

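Direct *NOTCH1* target genes were followed probe by probe in ALL-SIL cells after knockdown of *PHF6*. The 9 genes were *DTX1*, *HES1*, *HES4*, *NRARP*, *MYC*, *PTCRA*, *IGF1R*, *SHQ1* and *TRIB2*, chosen by name as known direct *NOTCH1* targets in T-ALL, the T cell form of acute lymphoblastic leukemia, at a time when earlier results of these data were known. They are 9 of the 19722 genes named on the array, and 11 of its 57176 unique probes carry their transcripts. ALL-SIL is a long-established human T-ALL line, and *PHF6* encodes a chromatin-associated protein that is recurrently lost in T-ALL. Cells were electroporated with a control siRNA, with *PHF6* siRNA1 or with *PHF6* siRNA2, and the labels give no other treatment. The labels of the samples and the methods of the study give harvest at 96 h, whereas the free-text descriptions give 72 h. Each group held 3 samples, numbered as replicates 1 to 3 and described in the methods as independent samples, and each sample was read on 1 array labelled with Cy3 only, which makes 9 arrays. One siRNA product was a single duplex and the other a pool of duplexes, and the sources used here do not say which of them is siRNA1. All samples come from 1 cell line, so the p-values describe this line.

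Notch receptors are cleaved after they bind a ligand, and the released intracellular domain joins the DNA-binding protein RBPJ and a Mastermind coactivator to switch on genes. In the thymus this signal commits progenitors to the T lineage and carries them up to the checkpoint where the pre-T cell receptor is assembled. Activating *NOTCH1* mutations are common in T-ALL, where the same targets drive growth and survival. The 9 genes stand for different arms of the response. *HES1*, *HES4*, *DTX1* and *NRARP* are core targets that also feed back on the pathway, *PTCRA* encodes the invariant chain of the pre-T cell receptor, and *MYC*, *IGF1R*, *SHQ1* and *TRIB2* serve growth and survival.

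The RBPJ recognition sequence was looked for close to the start of these genes. The core motif TGGGAA was searched on both strands in RefSeq promoters of the assembly GRCh38.p14, each running from 250 bases before to 50 bases after the start site. The table held promoters of 7 of the 9 genes, and not those of *DTX1* and *MYC*. At least 1 match was held by 2 of the 7 (28.6%), a share close to that of all promoters. Of all 35116 promoters, 24% held at least 1 match and 3.8% at least 2. *HES1* had 2 matches, at -84 to -79 and at -70 to -65 from the start site, and *HES4* had 1, at -76 to -71. The first *HES1* match and the *HES4* match were preceded by a G, the longer form GTGGGAA that contains the core and was found in 6.25% of all promoters. *NRARP*, *PTCRA*, *IGF1R*, *SHQ1* and *TRIB2* had no match in this window. The 100 bases just before the start site are shown for the pair of genes with a match, and for *NRARP* and *PTCRA* as examples without one, with the core motif in capitals. *HES1* is shown from chr3:194136048-194136147 on the plus strand, *HES4* from chr1:1000098-1000197 on the minus strand, *NRARP* from chr9:137302272-137302371 on the minus strand and *PTCRA* from chr6:42915953-42916052 on the plus strand.
HES1: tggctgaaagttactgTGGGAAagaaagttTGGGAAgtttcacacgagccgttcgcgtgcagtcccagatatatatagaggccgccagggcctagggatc
HES4: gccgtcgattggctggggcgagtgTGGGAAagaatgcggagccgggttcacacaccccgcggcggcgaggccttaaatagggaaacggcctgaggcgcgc
NRARP: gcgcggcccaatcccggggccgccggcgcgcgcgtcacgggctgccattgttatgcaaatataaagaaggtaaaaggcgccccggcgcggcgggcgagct
PTCRA: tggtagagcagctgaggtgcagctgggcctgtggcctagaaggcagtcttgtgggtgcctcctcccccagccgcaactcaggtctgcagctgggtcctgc

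Values below are normalized log2 intensities, which set arrays side by side for 1 probe but do not rank different probes. A probe was tested when its spot was well above background, in the scanner's own flag, on at least 3 arrays, which left 33586 of the 57176 probes. The targeted gene followed the labels. *PHF6* gave 11.07, 11.17 and 10.86 in control replicates 1 to 3, 9.39, 9.69 and 9.12 with siRNA1, and 9.20, 9.27 and 9.14 with siRNA2. All 6 siRNA arrays lay below all control arrays, and *PHF6* fell by 1.73 on the log2 scale (SE 0.14; limma adjusted p = 0.00249). The 12 genes listed as T lineage markers, which include the T-ALL oncogene *TLX1*, were well above background on all 9 arrays. Of markers of other lineages, 3 of 5 B lineage genes, 2 of 5 myeloid genes with a probe, 2 of 3 erythroid genes with a probe and 2 of 4 epithelial or stromal genes were too, whereas *FCGR3A*, *HBB* and *EPCAM* were on none. *CD3D* led the summed intensity of the T lineage markers before normalization, with a mean intensity of 101695. That sum was 219690 to 221887 in controls, 166017 to 216207 with siRNA1 and 181975 to 210650 with siRNA2. That of the B lineage markers, which *CD79A* led, was 5626 to 8092, 4165 to 7084 and 5056 to 6112. That of the myeloid markers was 248 to 330.2, 228 to 328 and 249.9 to 314, that of the erythroid markers 1298 to 1998, 982 to 1938 and 1248 to 1574, and that of the epithelial or stromal markers 2409 to 3042, 1928 to 3088 and 2131 to 2789. These sums were not normalized, so differences in brightness between arrays were not removed from them, and *CD3D* weighs heavily in that of the T lineage. The part of these levels in the results below was not tested. The arrays do not separate less RNA per cell from fewer cells that hold it.

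The replicate number carried much of the spread. Replicate 1 lay in row 1 of slide 1, replicate 2 in row 2 of slide 1, and replicate 3 on slide 2, scanned on another day. Differences between replicate samples therefore cannot be told apart from slide, row or scan day. Arrays with the same number deviated together from their group means, with correlations across probes of 0.31 to 0.74 (9 pairs). Arrays with different numbers gave -0.57 to 0.13 (18 pairs). Deviations within a group sum to 0, so positive same-number values push these down, and they are no separate evidence of pairing. Because of the same-number pairs, each change was tested in limma by group alone and again with the replicate number blocked (called the block below). The p-values were adjusted over all 33586 probes. By group alone none of the 9 tested probes of the *NOTCH1* targets passed an adjusted p of 0.05 with both siRNAs together, with siRNA1 or with siRNA2 against control. At an unadjusted p under 0.05 there was 1, *PTCRA*, with both siRNAs and with siRNA1, and 0 with siRNA2, beside 7.43%, 5.93% and 5.9% of all probes in the same order. Over the whole array 0.00893% of probes passed with both siRNAs, 0.00893% with siRNA1 and 0.0119% with siRNA2. With the block 1 of the 9 passed in each of these comparisons, always *PTCRA*, against 2.74%, 0.941% and 1.65% of all probes. Between the siRNAs none passed in either fit, against 0% and 0.0387% of all probes, with 0 of the 9 at an unadjusted p under 0.05 by group alone, beside 2.51% of all probes, and 2 with the block, beside 9.65%.

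*PTCRA* showed the largest difference from control among the tested probes of the members. Its probe gave 8.57, 8.96 and 8.08 in control replicates 1 to 3. With siRNA1 it gave 7.67, 7.85 and 7.25, and with siRNA2 8.23, 8.30 and 7.53. All siRNA1 arrays lay below all control arrays, as for 5.83% of probes in that direction, whereas 2 of the siRNA2 arrays lay within the control range. *PTCRA* fell by 0.73 on the log2 scale with both siRNAs together, which is 0.603 of the control level (SE 0.23, 95% interval -1.24 to -0.22). By group alone this did not pass (limma adjusted p = 0.645), and with the replicate block it did (SE 0.09, 95% interval -0.93 to -0.53, limma adjusted p = 0.00836), as the 48th probe by p. The change was -0.95 with siRNA1 (limma adjusted p = 0.751 by group alone and 0.00696 with the block). With siRNA2 it was -0.51 (limma adjusted p = 0.861 by group alone and 0.0471 with the block). Both single-siRNA calls with the block were lost with VSN on the processed signal (limma adjusted p = 0.0678 with siRNA1 and 0.108 with siRNA2) and with 75th percentile scaling (limma adjusted p = 0.0659 and 0.0974).

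Within each replicate number *PTCRA* was below its own control array in 6 of 6 siRNA arrays, with differences of -1.10 to -0.34. Falls of this kind, in all 6 arrays, were seen for 10.8% of probes. The mean difference was -0.62 in replicate 1, -0.88 in replicate 2 and -0.69 in replicate 3, so that the slide with replicates 1 and 2 and the slide with replicate 3 gave the same direction. The level was lower with siRNA1 than with siRNA2 in 3 of 3 replicates, by 0.56, 0.45 and 0.29, but the difference of 0.43 did not pass (limma adjusted p = 0.287 with the block). The call with the block was lost without either replicate of slide 1. Without replicate 1 the change was -0.78 (limma adjusted p = 0.0583) and without replicate 2 it was -0.66 (limma adjusted p = 0.102). With slide in place of replicate number as the block it was -0.73 (limma adjusted p = 0.0551). Control siRNA was always in slide column 1, siRNA1 in column 3 and siRNA2 in column 4, so that group and position within a row of the slide cannot be told apart.

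**Figure D1:**
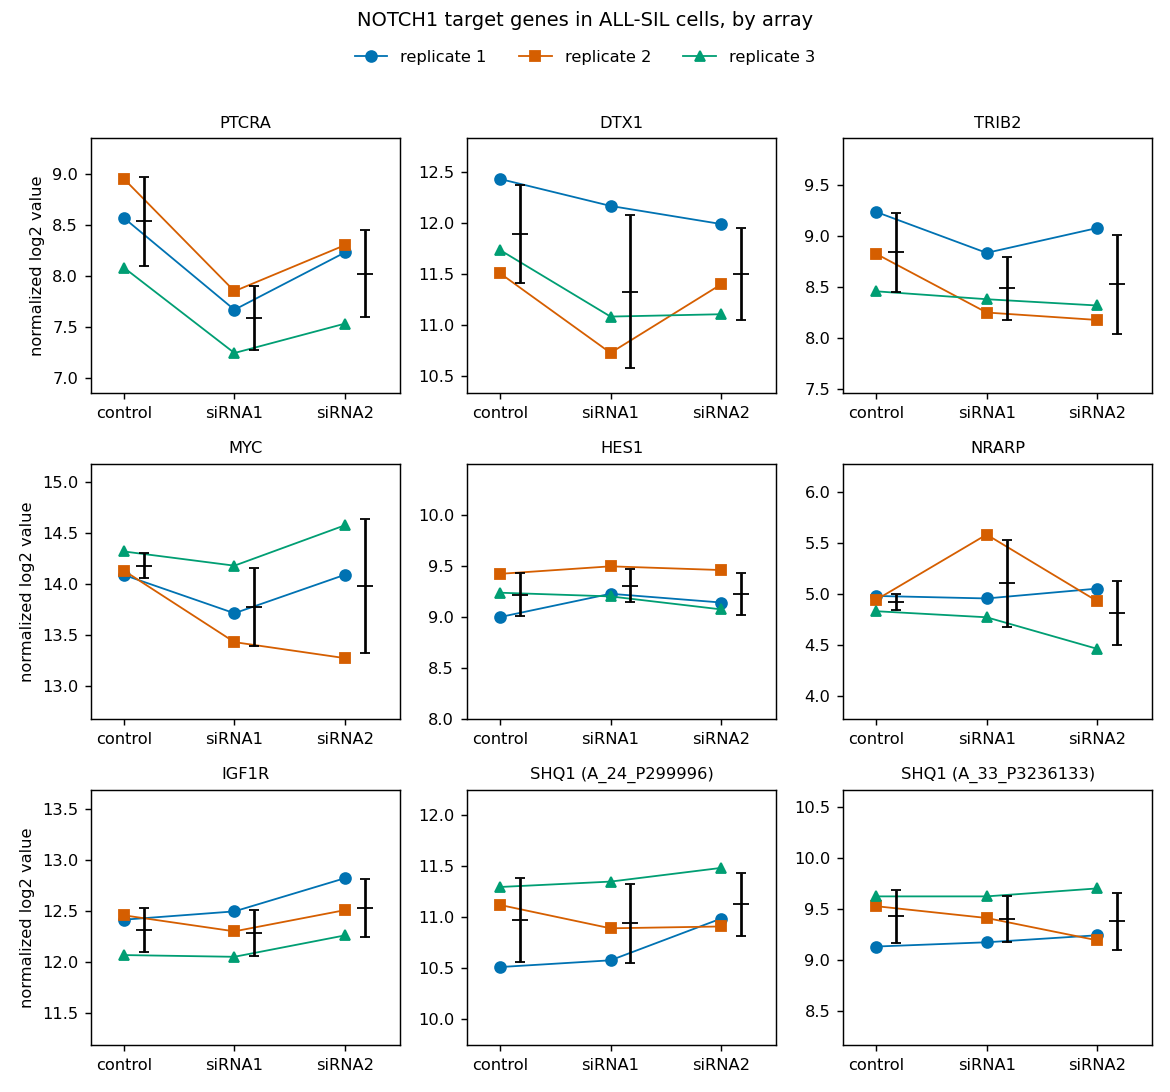
Normalized log2 value of the 9 tested probes of NOTCH1 target genes (vertical axis, each panel spanning the same log2 range) in the control siRNA, PHF6 siRNA1 and PHF6 siRNA2 groups. Coloured points joined by lines are the arrays of 1 replicate number, and black bars are the mean ± SD (n = 3). The 3 PTCRA lines fall from control to siRNA1 and end below control with siRNA2, and the 3 DTX1 lines also end below control, as do the 3 TRIB2 lines. The MYC lines fall from control to siRNA1 but not all to siRNA2, and the IGF1R lines end above control with siRNA2.

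The core feedback targets gave no call. *DTX1* encodes a ubiquitin ligase that binds the intracellular part of Notch. It gave 12.43, 11.51 and 11.73 in controls, 12.17, 10.72 and 11.08 with siRNA1, and 11.99, 11.40 and 11.10 with siRNA2. Replicate 1 stood above the other two in every group, and the groups overlapped. Against the control of the same number it was lower in 6 of 6 siRNA arrays, by 0.11 to 0.78, with mean differences of -0.35, -0.45 and -0.64 in replicates 1 to 3. The difference over both siRNAs was -0.48 (SE 0.32, 95% interval -1.19 to 0.23, limma adjusted p = 0.779). With the replicate block the interval was -0.78 to -0.18, and *DTX1* still missed the threshold (limma adjusted p = 0.0795). The differences were -0.57 with siRNA1 and -0.39 with siRNA2.

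*HES1* encodes a transcriptional repressor, the best known Notch target. It gave 9.0004, 9.42 and 9.24 in controls, 9.23, 9.50 and 9.20 with siRNA1, and 9.14, 9.46 and 9.08 with siRNA2. The groups overlapped, and the siRNA arrays were higher than their own control in 4 of 6 cases. The difference over both siRNAs was 0.05 (95% interval -0.27 to 0.36, limma adjusted p = 0.961), and -0.02 when the scanner's processed signal was normalized. With the block the interval narrowed to -0.15 to 0.24 (limma adjusted p = 0.792).

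*HES4*, a related repressor, could not be measured. Its probe was well above background on 1 of 9 arrays, with siRNA1, and its median intensity of 28 to 44 lay close to the negative control probes, whose medians were 23 to 27.5. *NRARP* encodes an ankyrin repeat protein that binds the Notch complex and limits it. It had 2 probes, of which A_33_P3337267 was well above background on 0 of 9 arrays (intensity 25 to 34) and was not tested. The other, A_33_P3337272, was well above background on 7 of 9 arrays and dim throughout (36.5 to 53). It gave 4.98, 4.94 and 4.83 in controls, 4.96, 5.58 and 4.77 with siRNA1, and 5.05, 4.93 and 4.46 with siRNA2. The single high array was siRNA1 replicate 2, and the groups overlapped. The difference over both siRNAs was 0.04 (95% interval -0.38 to 0.46, limma adjusted p = 0.976). Against its own control the *HES4* probe was higher in 6 of 6 siRNA arrays, beside 10.7% of tested probes. The untested *NRARP* probe was lower in 6 of 6, beside 10.8%. At this signal a fall of *NRARP* or *HES4* had little room to show, and whether a rise would show was not tested.

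*MYC* encodes the transcription factor through which *NOTCH1* drives growth in T-ALL. Its probe was printed in 5 spots, which differed by an SD of 0.13 to 0.22 within an array, and it was bright, at 8691 to 25064 before normalization. It gave 14.09, 14.13 and 14.32 in controls, 13.71, 13.43 and 14.18 with siRNA1, and 14.09, 13.27 and 14.58 with siRNA2. Replicate 2 was low with both siRNAs, and siRNA2 replicate 3 was the highest of all 9 arrays. The mean difference was -0.19 in replicate 1, -0.78 in replicate 2 and 0.06 in replicate 3. Over both siRNAs the difference was -0.30 (SE 0.26, 95% interval -0.87 to 0.26, limma adjusted p = 0.835). With the block the interval was -0.65 to 0.04 (limma adjusted p = 0.283).

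*TRIB2* encodes a pseudokinase that promotes protein degradation and can transform blood cells. It gave 9.23, 8.82 and 8.45 in controls, 8.83, 8.25 and 8.38 with siRNA1, and 9.08, 8.17 and 8.32 with siRNA2. Each siRNA array was below its own control, by 0.08 to 0.65, yet the groups overlapped, with replicate 1 high throughout. The mean difference was -0.28, -0.61 and -0.11 in replicates 1 to 3. Over both siRNAs it was -0.33 (SE 0.23, 95% interval -0.85 to 0.19, limma adjusted p = 0.790). With the block the interval was -0.58 to -0.09, and the test was not passed (limma adjusted p = 0.121).

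*IGF1R* encodes the receptor for insulin-like growth factor 1. It gave 12.41, 12.46 and 12.07 in controls, 12.50, 12.30 and 12.05 with siRNA1, and 12.82, 12.51 and 12.26 with siRNA2. The groups overlapped, with siRNA2 above siRNA1 in 3 of 3 replicates by 0.33, 0.21 and 0.21. That difference of 0.25 did not pass (limma adjusted p = 0.489 with the block). Over both siRNAs *IGF1R* differed from control by 0.09 (95% interval -0.26 to 0.45, limma adjusted p = 0.930).

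*SHQ1* encodes an assembly factor of the box H/ACA ribonucleoproteins, which modify ribosomal RNA and hold telomerase RNA. Its 2 probes read the same gene and are not replicates. Probe A_24_P299996 gave 10.51, 11.12 and 11.29 in controls, 10.57, 10.89 and 11.35 with siRNA1, and 10.98, 10.90 and 11.48 with siRNA2. Probe A_33_P3236133 gave 9.13, 9.52 and 9.62 in controls, 9.17, 9.41 and 9.62 with siRNA1, and 9.24, 9.19 and 9.70 with siRNA2. Replicate 1 was low and replicate 3 high in control and siRNA1 on both probes, and the groups overlapped. Over both siRNAs the differences were 0.06 (95% interval -0.43 to 0.55, limma adjusted p = 0.970) and -0.04 (95% interval -0.41 to 0.34, limma adjusted p = 0.975).

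**Figure D2:**
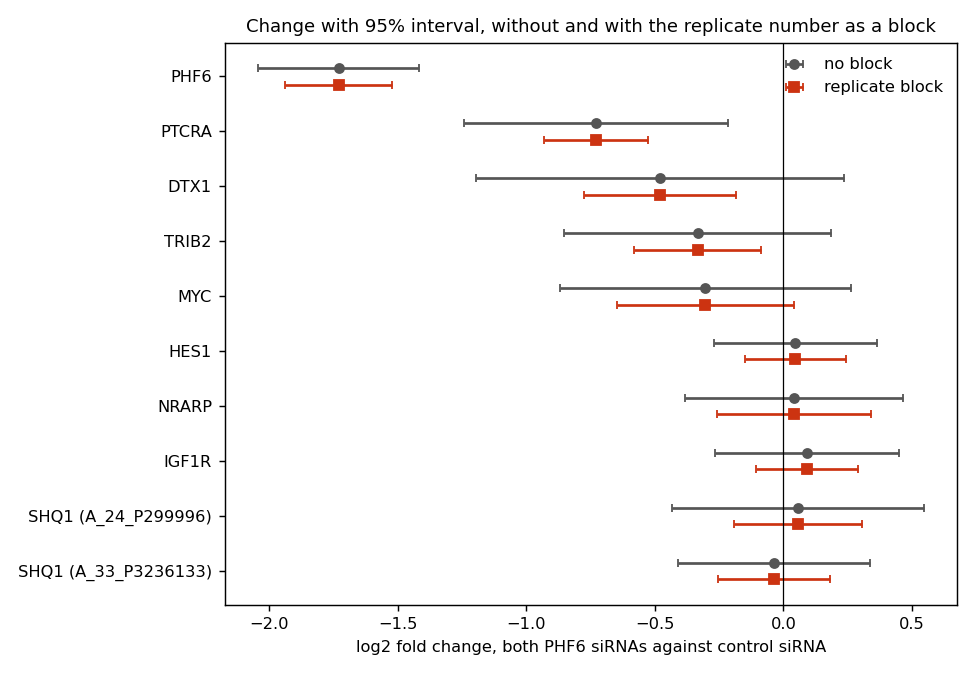
Log2 fold change of PHF6 and of the 9 tested probes of NOTCH1 target genes, both PHF6 siRNAs against control siRNA (horizontal axis), with 95% intervals from limma by group alone (grey circles) and with replicates as a block (red squares), over 9 arrays. Points below and above 0 are lower and higher with siRNA. The intervals of PHF6 and PTCRA lie below 0 in both fits, and those of DTX1 and TRIB2 lie below 0 with the block alone.

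Set side by side, the members did not change alike. *PTCRA*, *DTX1*, *TRIB2* and *MYC* lay at -0.73 to -0.30 over both siRNAs. The other tested probes lay at -0.04 to 0.09, and each of them changed sign in some alternative. Of the 9 tested probes 5 were lower and 4 higher over both siRNAs, with a median of -0.04. The median was -0.00 over all tested probes. It was -0.04 over 14680 genes with 1 probe each, of which 59.0% were lower. The median of the members moved with the choices made. It was -0.17 over the 8 probes well above background on all 9 arrays. Without control replicate 1 it was -0.18, with 7 of 9 lower, and without control replicate 2 it was 0.01. With siRNA1 7 were lower, beside 61.9% of all genes, and with siRNA2 6, beside 53.7%. These comparisons share their control arrays. *PTCRA*, *DTX1* and *TRIB2* were below their own control in all 6 siRNA arrays, which is 3 of 9 probes beside 10.8% of all probes, and none of the 9 tested probes was above it in all 6 beside 10.7%. The count of 3 rests on a few genes. *PTCRA* alone passed a test, with the replicate block and not by group alone.

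**Figure D3:**
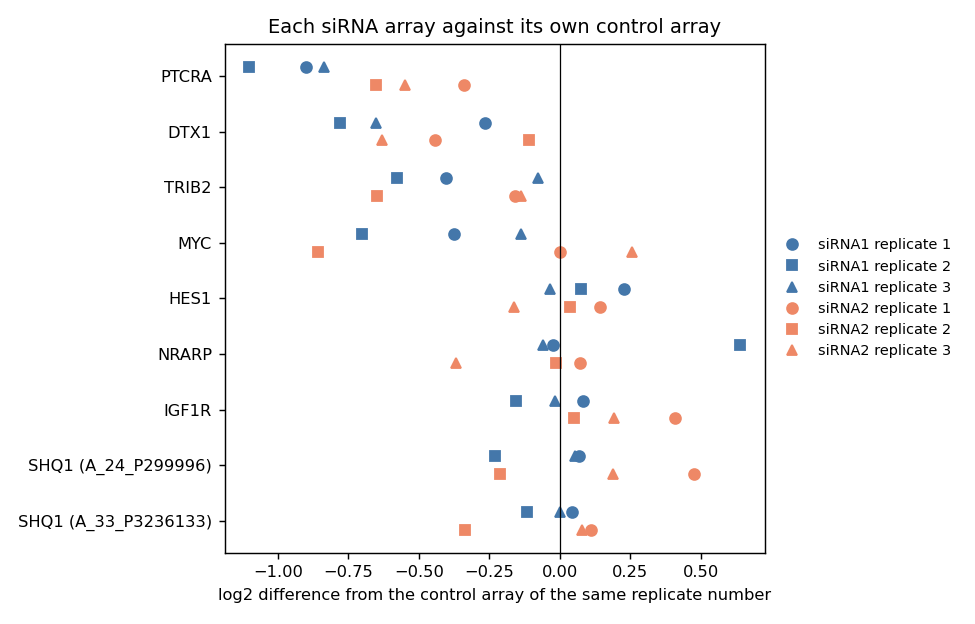
Log2 difference of each siRNA array from the control array with the same replicate number (horizontal axis) for the 9 tested probes, with siRNA1 in blue, siRNA2 in orange and the replicate number as the marker shape. All 6 points of PTCRA, DTX1 and TRIB2 lie below 0, from -1.10 to -0.08, and the points of the other probes lie on both sides of 0.

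The spread over the 9 arrays divided differently from gene to gene. The share of the replicate number includes that of slide, slide row and scan day. For *PTCRA* the siRNA group took 59.0% of the sum of squares, the replicate number 39.2% and the rest 1.85%. For *PHF6* the group took 96.5% and the replicate number 2.77%. In the other tested members the replicate number was the largest share, from 48.0% for the dim *NRARP* probe to 82.9% for *SHQ1* probe A_33_P3236133, with 70.8% for *DTX1* and 71.0% for *TRIB2*. The median over all tested probes was 50.1% for the replicate number and 19.9% for the group.

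**Figure D4:**
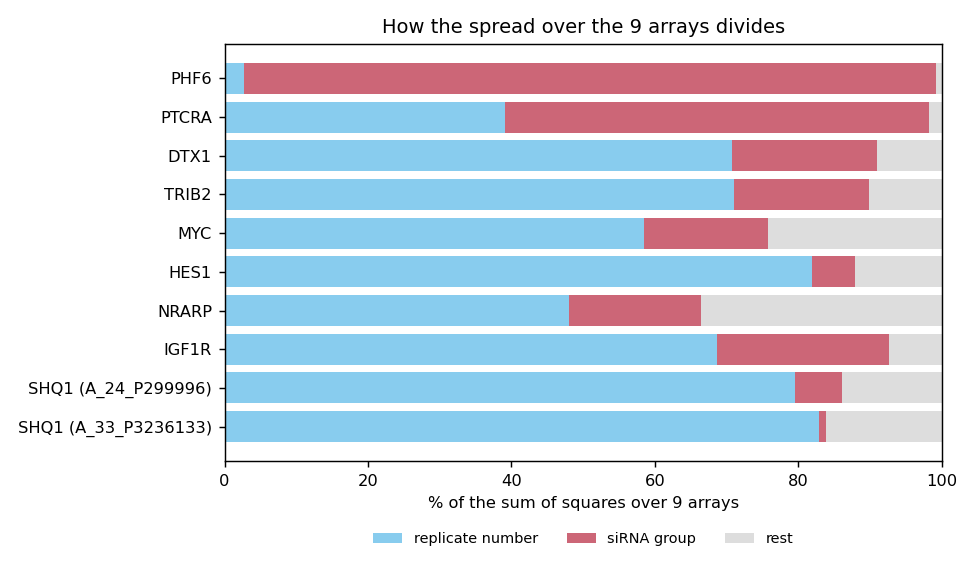
Share of each probe's sum of squares over 9 arrays (horizontal axis, %) that goes with the replicate number (blue), the siRNA group (red) and the rest (grey), for PHF6 and the 9 tested probes of NOTCH1 target genes. The group takes 96.5% for PHF6 and 59.0% for PTCRA, and the replicate number is the largest part of every other bar.

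The profile of *PTCRA* over the 9 arrays was closest to those of *STYXL1* (r = 0.98), *RFC1* (r = 0.97) and *PML* (r = 0.96) among 13229 genes, and that of *DTX1* to those of *TCEAL6* (r = 0.99), *TTI2* (r = 0.99) and *ESYT1* (r = 0.98). These values describe 9 arrays that share replicate numbers and groups. None of these 6 genes passed the test with both siRNAs, with limma adjusted p of 0.0633 to 0.564 under the block.

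Genes around the members were counted with 1 probe per gene, the brightest tested. By group alone no gene of the lists below passed with both siRNAs, beside 1 of all 14680 genes, and with the block 2.37% of all genes passed. Of 35 Notch receptors, ligands and signalling genes 29 were tested, 15 lower and 14 higher, with a median of -0.01 beside -0.04 over all genes, and 10 were lower with a median of 0.02 under normexp and quantile normalization, and 21 were lower with the processed signal. With siRNA1 alone 21 of the 29 were lower (median -0.09) and with siRNA2 alone 9 (median 0.06). With the block 1 passed, *MFNG*, a glycosyltransferase that tunes how Notch receptors respond to ligands. *MFNG* gave 12.06, 11.53 and 11.86 in controls, 11.75, 11.15 and 11.62 with siRNA1, and 11.48, 11.06 and 11.54 with siRNA2. Each siRNA array was below its own control although the groups overlapped, and the difference was -0.39 (limma adjusted p = 0.0449 with the block and 0.685 by group alone). *NOTCH1* itself, named here after its value was seen, differed by -0.44 and missed the threshold in both fits (limma adjusted p = 0.617 by group alone and 0.0538 with the block).

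Of 27 further *NOTCH1* targets 20 were tested, 10 lower and 10 higher, with a median of 0.01, which was -0.01 with the processed signal. Under normexp and quantile normalization 5 were lower and 15 higher, with a median of 0.05. With the block 1 passed, and it moved up rather than down. *IL7R*, the receptor chain for interleukin 7, gave 6.94, 8.02 and 7.51 in controls, 7.52, 8.99 and 9.14 with siRNA1, and 8.32, 9.35 and 9.24 with siRNA2. All siRNA2 arrays lay above all control arrays, as for 4.34% of probes in that direction, whereas 1 siRNA1 array lay within the control range, and each siRNA array was above its own control, by a mean of 1.27 (limma adjusted p = 0.00657 with the block and 0.645 by group alone). *PTCRA* and *IL7R*, both *NOTCH1* targets in T-ALL, changed in opposite directions with the block.

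Of 25 relatives and partners of the members, such as other Tribbles and Deltex proteins, box H/ACA proteins and *MYC* partners, 22 were tested. They divided into 14 lower and 8 higher with a median of -0.04, and none passed in either fit. *TRIB1*, at 0.81, and *IRS2*, at 0.38, were named after their values were seen and missed the threshold with the block (limma adjusted p = 0.118 and 0.0571). All 16 genes of the pre-T cell receptor and its regulators were tested, of which 12 were lower and 4 higher with a median of -0.06, and none passed. The extremes, named for that, were *CD3E*, a signalling chain of the receptor, at -0.33 (limma adjusted p = 0.200 with the block) and the recombinase gene *RAG1* at 0.70 (limma adjusted p = 0.0542 with the block). Under normexp and quantile normalization 8 of these 16 were lower, with a median of 0.00.

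*MYC* target genes were mostly lower, by small amounts that passed no test. The list held 20 genes, mainly of nucleolar function, translation and metabolism, with others of the cell cycle, DNA replication and iron uptake. Over both siRNAs 20 of 20 were lower, beside 59.0% of all 14680 genes, with a median of -0.23 beside -0.04. With siRNA1 alone 19 of 20 were lower and with siRNA2 alone 20 of 20. None passed in either fit. The extremes were *SRM*, spermidine synthase, at -0.37 (limma adjusted p = 0.0685 with the block) and *NOP58*, a box C/D core protein, at -0.07 (limma adjusted p = 0.711 with the block). Against its own control each siRNA array had 16 to 20 of the 20 genes lower. The medians were -0.20, -0.28 and -0.17 in siRNA1 replicates 1 to 3, and -0.28, -0.40 and -0.17 in siRNA2 replicates 1 to 3. The medians of all genes on the same arrays were -0.10 to 0.00. Replicate 2, where *MYC* itself was lowest against control, also had the lowest median of its targets with each siRNA. The median of all genes was lowest in replicate 2 as well, at -0.10 with siRNA1 and -0.04 with siRNA2. In siRNA2 replicate 1 the targets had a median of -0.28 while *MYC* differed by 0.00. In siRNA2 replicate 3 the targets were lower although *MYC* was 0.26 higher. A link between *MYC* and these genes was not tested. Under normexp and quantile normalization 19 of 20 were lower with a median of -0.14, and under each other normalization 20 of 20 were.

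**Figure D5:**
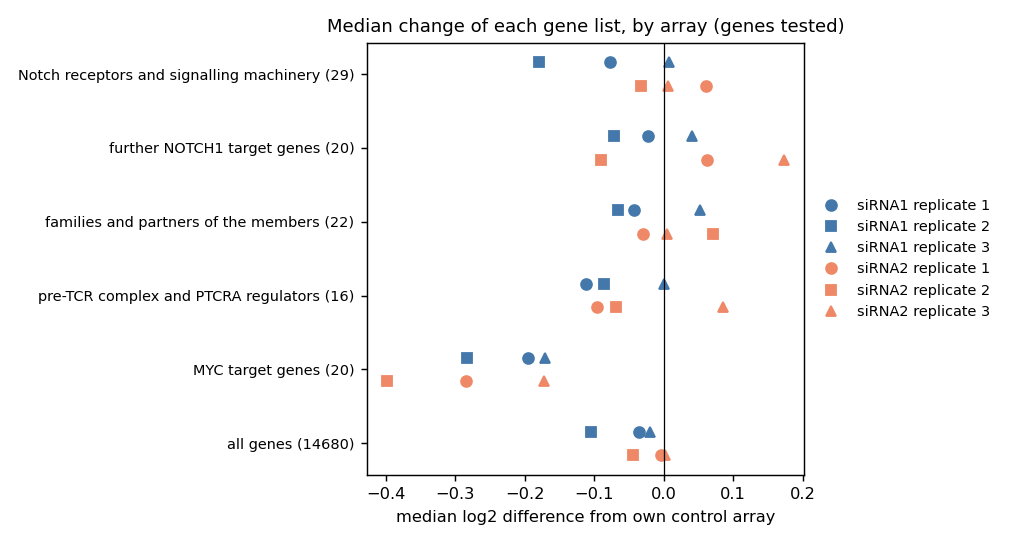
Median log2 difference of each gene list and of all 14680 genes from the control array with the same replicate number (horizontal axis), 1 point per siRNA array, with siRNA1 in blue, siRNA2 in orange, the replicate number as the marker shape and the number of tested genes in brackets. The MYC target medians lie between -0.40 and -0.17, below the medians of all genes, which lie between -0.10 and 0.00, and the other lists lie on both sides of 0.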

How the data were processed

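For each of 9 ALL-SIL samples the authors deposited the intensity of every spot on a custom one-colour Agilent array, extracted with Feature Extraction (10.5.1.1 in the file headers, 9.1 in the submitters' processing notes) and annotated on hg19, without normalization between arrays. The authors also deposited log2 values that they had normalized with VSN, which served as an alternative. The deposited flags, scored 0 or 1 per spot, mark spots well above background, outliers and saturated spots, and no spot was saturated.

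The groups come from the sample titles. Median intensities were normalized with the VSN model (affine transformation and inverse hyperbolic sine, 7 iterations at a trimming quantile of 0.9), coded in R 4.3.3 because the vsn package was not installed. Outlier spots were left out and repeated spots averaged, so that 61537 spots gave 57176 probes. Of these, 25729 were named by matching transcript accessions to the RefSeq table of GRCh38.p14, used for names and promoters only, and probes with other identifiers stayed unnamed. Between 29662 and 33736 probes per array were well above background, and depth has no counterpart on arrays, whose number limits the precision.

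The pooled siRNAs, siRNA1 alone and siRNA2 alone were each tested against control, and the siRNAs against each other, with limma 3.58.1 over 3 groups, with Benjamini-Hochberg adjustment and a threshold of 0.05. The normalization and the fit by group alone were tested on simulated data without replicate effects, and the fit with the block was not. The methods of the study state limma and no block. The replicate numbers, which come from the labels, paired the arrays (correlation of deviations over 0.1 in all 9 same-number pairs), so the block is given beside the results. Replicates 1 and 2 were on slide 1 and replicate 3 on slide 2. Named genes were all members, *PHF6*, list genes that passed, and the 3 genes with the closest profiles to *PTCRA* and to *DTX1*. Other genes are marked in the text. The members and lists were chosen with earlier results of these data known. Alternatives were other normalizations, filters, blocks, and leaving out arrays.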

Additional observations from a re-analysis of the deposited data

How the results depend on the processing

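No member passed by group alone under any of the 4 other normalizations, both filters, the slide block or the leave-out of any array. With the replicate block 1 member passed, *PTCRA*, in each siRNA comparison against control. With both siRNAs this held under the block with each other normalization (1 each) and ranged from 0 to 1 when a replicate number was left out. *PTCRA* stayed lower in all 24 alternatives, at -0.96 to -0.52, and passed in 6. With siRNA1 it passed in 4 of 24 and with siRNA2 in 3 of 24 (lost with the block under VSN on the processed signal, 75th percentile scaling and the leave-out of a replicate number, other than siRNA1 without replicate 3), where alternatives that pair the block with another choice were added after the data were seen. With both siRNAs *DTX1* (-0.69 to -0.21), *TRIB2* (-0.52 to -0.14) and *MYC* (-0.48 to -0.064) stayed lower in all 24 without passing. The ends nearest 0 came without control replicate 1 for *DTX1* and *TRIB2* and, with the block, without replicate 2 for *MYC* (-0.13 by group alone without siRNA2 replicate 2), and the far ends of *TRIB2* and *MYC* without control replicate 3 and, with the block, without replicate 3. With both siRNAs *PHF6* passed in 23 of 24, and missed under VSN on the processed signal (limma adjusted p = 0.0593). It passed in 10 of 17 alternatives with siRNA1 (highest limma adjusted p = 0.207) and in 11 of 17 with siRNA2 (highest limma adjusted p = 0.113).

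Calls over the whole array were 3 with both siRNAs, 3 with siRNA1, 4 with siRNA2 and 0 between the siRNAs. With the replicate block they were 919, 316, 554 and 13, and with the slide block 18, 11, 11 and 6. With both siRNAs the block gave 150 calls with VSN on the processed signal, 272 with 75th percentile scaling, 1284 with normexp and quantile normalization and 868 with the deposited values, and 45, 5 and 671 without replicate 1, 2 and 3. Scaling to the 75th percentile gave 5, 6 and 2 calls against control, normexp and quantile normalization 5 and 6 with both siRNAs and siRNA2, and the deposited values 2 with siRNA1. VSN on the processed signal gave 0 with siRNA1 and 0 with siRNA2. The filter on all 9 arrays gave 6 with siRNA1 and 4 between the siRNAs. Leaving out 1 array gave 2 to 3, 0 to 7, 0 to 4 and 0 to 11.

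Small differences changed sign. With VSN on the processed signal *HES1* was -0.023 with both siRNAs, also with the replicate block, -0.00021 with siRNA1 and -0.047 with siRNA2, and it was -0.0046 with siRNA2 under 75th percentile scaling. *SHQ1* probe A_33_P3236133 was 0.023 and 0.015 between the siRNAs under the same settings. With normexp and quantile normalization and siRNA1, *IGF1R* was 0.059 and the *SHQ1* probes 0.035 and 0.0071, and with the deposited values and siRNA2 *NRARP* was 0.038. With the block, *HES1* (-0.022) and *SHQ1* A_24_P299996 (-0.050) turned without replicate 1, and *NRARP* (-0.095) and *SHQ1* A_33_P3236133 (0.058) without replicate 2. Leaving out single arrays turned signs too, with both siRNAs for *HES1* (-0.063 to 0.15), *NRARP* (-0.079 to 0.13), *IGF1R* (-0.030 to 0.17), *SHQ1* A_24_P299996 (-0.18 to 0.22) and A_33_P3236133 (-0.18 to 0.061). With siRNA1 the ranges were -0.022 to 0.19 for *HES1*, -0.054 to 0.35 for *NRARP*, -0.15 to 0.085 for *IGF1R*, and -0.27 to 0.14 and -0.17 to 0.090 for the *SHQ1* probes. With siRNA2 they were -0.11 to 0.11 for *HES1*, -0.22 to 0.073 for *NRARP*, -0.50 to 0.15 for *MYC*, and -0.082 to 0.31 and -0.21 to 0.049 for the *SHQ1* probes. Between the siRNAs they were -0.13 to 0.59 for *DTX1*, -0.20 to 0.011 for *HES1*, -0.092 to 0.56 for *MYC*, -0.19 to 0.086 for *SHQ1* A_33_P3236133 and -0.24 to 0.21 for *TRIB2*. The causes were not tested. The signal over background limits *HES4* and *NRARP*.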
